A study of Glycine max with 12 samples.

Results

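A set of 69 soybean (Glycine max) gene models had far less transcript in leaves of plants that overexpress GmZF351, while their root level stayed within a band around that of the control. They were picked from 43517 gene models by CPM, a gene's count scaled to a fixed library total. The group means of OE over WT, each with 0.1 CPM added, gave a ratio per tissue, which was divided by the median ratio over genes with at least 5 CPM in both genotypes. That median was 1.257 in leaf, over 18576 genes, and 1.053 in root, over 22822 genes. The 69 genes had at least 5 CPM in WT leaf, at least 1 CPM in WT root, a leaf ratio of at most 0.25 and a root ratio over about 2/3 and under 1.5. Of the 17852 genes at both floors, 266 met the leaf limit, and 69 of these kept their root ratio in the band. Another 189 were low in both tissues, 7 were low in leaf and high in root, and 1 in the band was left out by the rule. The ratios of OE over WT in leaf and in root therefore chose these genes and are given below as a description, with no test.

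The 12 libraries form 4 groups of 3. OE leaf and OE root came from the transgenic line OE-34, which overexpresses GmZF351, and WT leaf and WT root from the control cultivar Jack, called WT here. All plants grew in pots and were sampled when the first trifoliate leaf was fully open, the V1 stage. OE-34 is a single transgenic line, and nothing used here names its promoter, so effects of the gene and of that line cannot be told apart. The labels speak of biological repeats without saying whether plants were pooled, and a p-value covers only the variation among these libraries, which may be partly technical.

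GmZF351 encodes a protein with tandem CCCH zinc fingers and is known in soybean for raising seed oil content through genes of lipid synthesis. A leaf at this stage is a photosynthetic organ, rich in transcripts of Rubisco and its helper proteins. The root takes up water and minerals and, in legumes, carries the receptors for signals from nodulating bacteria. A transcript can be shared by both organs at like levels or belong mostly to 1 of them, so a fall in leaf alone can touch either kind. The files pair no names with the identifiers, and the reference table matched 0 of them, so the 69 genes are given by identifier with no function.

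The labels were first checked against marker genes, whose names come from general knowledge. GmZF351 (Glyma.06G290100) averaged 2296 ± 132.7 CPM in leaves of OE, where the WT leaf libraries held 1 count together, and 1355 ± 65.1 CPM in OE root, where those of WT root held 4 (SD, n = 3; CPM on library sizes scaled by TMM, the trimmed mean of M-values). Both leaf markers, RBCS2 (Glyma.19G046800, Rubisco small subunit) and RCA11 (Glyma.11G221000, Rubisco activase), were present in leaf, and their summed TMM-scaled CPM ran from 20225 to 22976 in OE leaf, below the 37179 to 42870 of WT leaf. In root that sum ran from 5.91 to 9.72 for OE and from 8.01 to 8.88 for WT. Both root markers, NFR5A (Glyma.11G063100, a nodulation factor receptor) and NINA (Glyma.04G000600, a regulator of nodule inception), had 0 counts in the 6 leaf libraries, which allows up to 3 counts a library. Their summed TMM-scaled CPM in root ran from 39.5 to 42.6 for OE, above the 24.5 to 27.3 of WT. The part of the lower leaf marker level of OE in the falls below was not tested. In whole organs, fewer cells of a type and less RNA per cell cannot be told apart. Libraries held 16885874 to 19041634 counts. WT root replicate 3 differed most from its group: the chi-square of its counts, per gene, was 9.87 and 7.1 against the other WT root libraries, which gave 2.97 between them.

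In leaf the 69 genes lost most of their transcript in OE. Their leaf ratio had a median of 0.176 and ran from 0.0162 to 0.249. It was at most 0.1 in 15 genes, over 0.1 and up to 0.2 in 35, and over 0.2 in 19. The OE leaf libraries were all below the WT leaf libraries in 69 of the 69, a pattern that 24.9% of the 35968 genes tested showed, and nothing is read from it since the rule used this contrast. Levels between genes are given as TPM, computed here from counts and exon length without TMM factors. TPM values of different groups are therefore not on the TMM scale. The summed level of the 69 was 728 ± 36.6 TPM in OE leaf and 3375 ± 143.4 TPM in WT leaf (SD, n = 3). In root the sums were 8376 ± 147.3 TPM in OE and 9519 ± 62.1 TPM in WT. The median gene had 2.92 TPM in OE leaf and 15.7 TPM in WT leaf, and in root it had 32.5 TPM in OE and 37.3 TPM in WT. At this lower level 10 of the 69 were under 1 TPM in OE leaf, while 6 were over 100 TPM in WT leaf and 14 in WT root. The 2 highest genes made up 30.4% of the summed WT leaf TPM, and the highest gene of the root 23.5% of the summed WT root TPM.

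**Figure D1:**
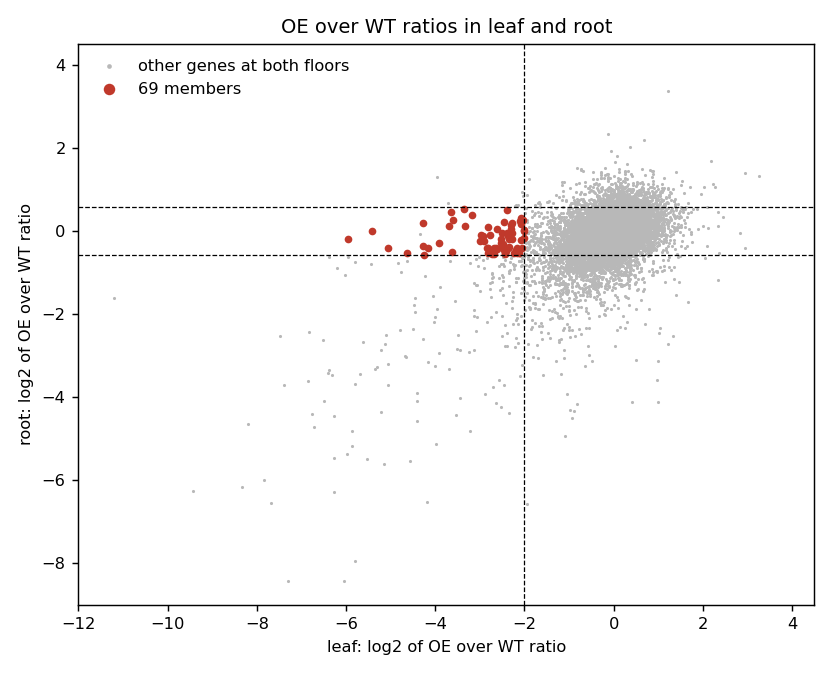
Each point is a gene at both floors, with the log2 of its OE over WT ratio in leaf on the horizontal axis and in root on the vertical axis. Dashed lines mark the limits of the rule (leaf ratio 0.25, root ratios of about 2/3 and 1.5). The 69 red points fill the band left of the leaf limit, and grey points below the band include the 189 genes low in both tissues.

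The lowest leaf ratio belonged to Glyma.05G161900 (chromosome 5, 35321754 to 35323187, plus strand, a single exon). It had 0.0602, 0 and 0 in the OE leaf libraries and 9.73, 9.11 and 6.59 in those of WT leaf, and in root 35.8, 35.9 and 40.9 for OE and 45.04, 44.1 and 40.6 for WT, in TMM-scaled CPM. The leaf groups were far apart and the root groups overlapped. Only 1 count was found over the 3 OE leaf libraries, against 309 over the 3 WT leaf libraries. On these counts, scaled by TMM library sizes, OE leaf was 407-fold lower, with a 95% exact counting interval of 72.6 to 16141 that covers counting error only. Its leaf ratio of 0.0162 is set in part by the added 0.1 CPM, while its root ratio was 0.881.

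Glyma.03G139900 (chromosome 3, 35632837 to 35633771, minus strand, a single exon) had TMM-scaled CPM of 0.181, 0.426 and 0.267 in the OE leaf libraries and 14.2, 21.99 and 17.1 in those of WT leaf, and in root 15.8, 14.7 and 13.8 for OE and 14.5, 15.2 and 15.02 for WT. The OE leaf libraries stood far below the other 9, which lay close together in both organs. The sums were 14 counts in OE leaf and 648 in WT leaf, a leaf ratio of 0.0234 beside a root ratio of 1.005. Glyma.12G069400 (chromosome 12, 5085850 to 5087029, plus strand, a single exon) had 0.1203, 0.122 and 0.133 in OE leaf against 7.59, 8.78 and 7.91 in WT leaf, and 19.1, 19.5 and 19.2 in OE root against 25.4, 27.4 and 25.8 in WT root, in TMM-scaled CPM. Its root libraries did not overlap either, with OE root the lower, at a root ratio of 0.746.

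The next genes in order had more counts in OE leaf. Glyma.14G062300 (chromosome 14, 5075491 to 5079469, minus strand) had 0.421, 1.52 and 0.999 in OE leaf against 24.9, 27.7 and 30.7 in WT leaf, in TMM-scaled CPM, a leaf ratio of 0.0406. Its OE leaf libraries differed among themselves by more than its WT leaf libraries did in proportion. In root it had 29.1, 25.6 and 29.3 in OE root against 42.5, 41.4 and 40.3 in WT root, a root ratio of 0.687 near the lower limit. Glyma.03G100500 (chromosome 3, 28960040 to 28964320, minus strand) had 0.602, 0.853 and 0.733 in the OE leaf libraries and 14.4, 18.95 and 17.1 in those of WT leaf, and in root 9.52, 10.1 and 11.1 for OE and 10.2, 9.09 and 8.19 for WT, in TMM-scaled CPM. Here root libraries of both genotypes lay near 10 CPM and overlapped, and the leaf ratio was 0.0516.

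Glyma.19G142700 (chromosome 19, 40393936 to 40394685, minus strand, a single exon) had 1.68, 1.401 and 0.733 in OE leaf against 21.9, 29.1 and 31.3 in WT leaf, and 27.8, 23.8 and 28.2 in OE root against 33.00, 35.9 and 34.6 in WT root, in TMM-scaled CPM. Glyma.11G213500 (chromosome 11, 30642068 to 30645711, minus strand) had 0.241, 0.975 and 0.133 in OE leaf against 9.07, 11.2 and 12.4 in WT leaf, in TMM-scaled CPM, so 1 OE leaf library stood above the other 2 and still far below WT leaf. In root it had 13.5, 12.9 and 13.8 in OE root against 16.4, 20.9 and 23.7 in WT root, and its root ratio of 0.6698 was the lowest of the 69. Glyma.20G159400 (chromosome 20, 39770049 to 39772043, minus strand) had 0.542, 0.426 and 0.267 in OE leaf against 10.1, 8.94 and 9.64 in WT leaf, and 2.88, 2.36 and 2.23 in OE root against 3.15, 3.25 and 3.801 in WT root, in TMM-scaled CPM. On this scale it was less abundant in every root library than in any WT leaf library, as was Glyma.03G100500, whose log2 fold change of WT leaf over WT root was -0.029 on total counts.

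**Figure D2:**
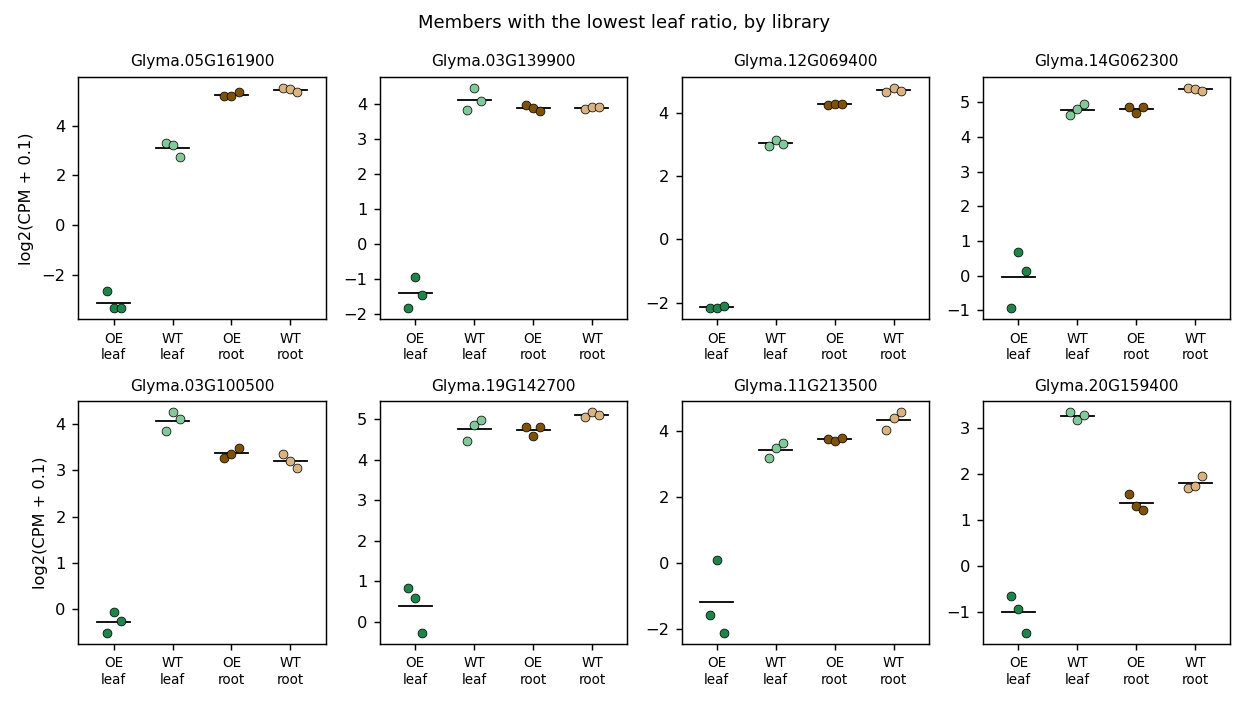
TMM-scaled CPM per library on the log2(CPM + 0.1) scale for the 8 genes with the lowest leaf ratio, with 1 point per library and a bar at the group mean. In each panel the 3 OE leaf points lie far below the WT leaf points, while the OE and WT root points lie much closer to each other.

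Low counts limit the size of the largest falls. With 20 or fewer counts over the OE leaf libraries, 5 genes are affected: the first 3 above, Glyma.20G159400 and Glyma.09G040600. On counts scaled by TMM library sizes, the OE over WT leaf ratio of Glyma.12G069400 was 0.0154 (exact 95% interval 0.00562 to 0.034). That of Glyma.20G159400 was 0.0436, with 0.0263 to 0.0684. The median coefficient of variation between libraries was 15.0% for OE leaf and 10.1% for WT leaf, and in root 7.48% for OE and 8.46% for WT. It was over 30% in 14 genes for OE leaf and 1 for WT leaf, and in root in 2 for OE and 5 for WT.

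Among the 69, the most abundant in WT leaf was Glyma.17G138500 (chromosome 17, 11222613 to 11227294, minus strand), which ranked 203 of all genes there by TPM. It had 258, 244 and 270.4 in the OE leaf libraries and 1722, 1324 and 1508 in those of WT leaf, and in root 60.9, 60.2 and 58.9 for OE and 62.7, 56.6 and 68.96 for WT, in TMM-scaled CPM. Per length this was 145 TPM in OE leaf and 642 TPM in WT leaf, beside 55.8 TPM in OE root and 54.6 TPM in WT root. The leaf groups were well apart, the root groups overlapped, and even in OE the leaf stayed above the root. Glyma.05G056300 (chromosome 5, 5148962 to 5154038, minus strand) came next, with 89.8 TPM in OE leaf and 384 TPM in WT leaf. Its libraries had 155, 159.8 and 183 in OE leaf against 979, 923 and 924 in WT leaf, and 87.4, 93.5 and 88.1 in OE root against 84.95, 76.3 and 72.7 in WT root, in TMM-scaled CPM. In root the OE libraries were all above the WT libraries.

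Glyma.20G196900 (chromosome 20, 43459811 to 43464110, plus strand) had 31.2, 32.7 and 31.2 in OE leaf against 345, 324 and 345 in WT leaf, in TMM-scaled CPM, a leaf ratio of 0.0976. In root it had 49.2, 49.00 and 46.9 in OE root against 37.4, 31.1 and 33.7 in WT root, with no overlap and OE the higher, and its root ratio of 1.44 was the highest of the 69. Its order of tissues turned with genotype: the leaf was below the root in OE and above it in WT. Glyma.04G222100 (chromosome 4, 49277863 to 49279646, minus strand) had 52.9, 52.8 and 55.97 in OE leaf against 266, 271 and 272 in WT leaf, in TMM-scaled CPM, and in root 5.34, 5.26 and 5.42 in OE root against 4.98, 4.05 and 5.11 in WT root. The leaf was above the root in both genotypes.

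Glyma.11G146500 and Glyma.05G103600 were abundant in both organs. Glyma.11G146500 (chromosome 11, 11300751 to 11303007, plus strand) had 44.2, 50.3 and 47.5 in OE leaf against 239, 187 and 203 in WT leaf, and 479, 441 and 441 in OE root against 411, 409 and 362 in WT root, in TMM-scaled CPM. Glyma.05G103600 (chromosome 5, 27608668 to 27612225, minus strand) had 25.03, 20.9 and 23.2 in OE leaf against 119, 118 and 128 in WT leaf, and 381, 396 and 418 in OE root against 471, 467 and 439.6 in WT root, in TMM-scaled CPM. In root the OE libraries of the first gene were all above WT, and those of the second all below. Glyma.09G062600 (chromosome 9, 5956760 to 5958942, plus strand) had 10.8, 11.7 and 9.79 in OE leaf against 145, 143 and 138 in WT leaf, a leaf ratio of 0.0793, and 8.81, 9.498 and 9.56 in OE root against 5.92, 7.11 and 7.65 in WT root, in TMM-scaled CPM. Glyma.10G139800 (chromosome 10, 37338285 to 37339737, plus strand) had 15.3, 19.8 and 21.1 in OE leaf against 84.6, 92.6 and 84.1 in WT leaf, and 27.00, 20.3 and 22.2 in OE root against 32.1, 34.4 and 34.8 in WT root, in TMM-scaled CPM. These 2 differed in root, where OE was the higher in Glyma.09G062600 and the lower in Glyma.10G139800, with no overlap in either.

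**Figure D3:**
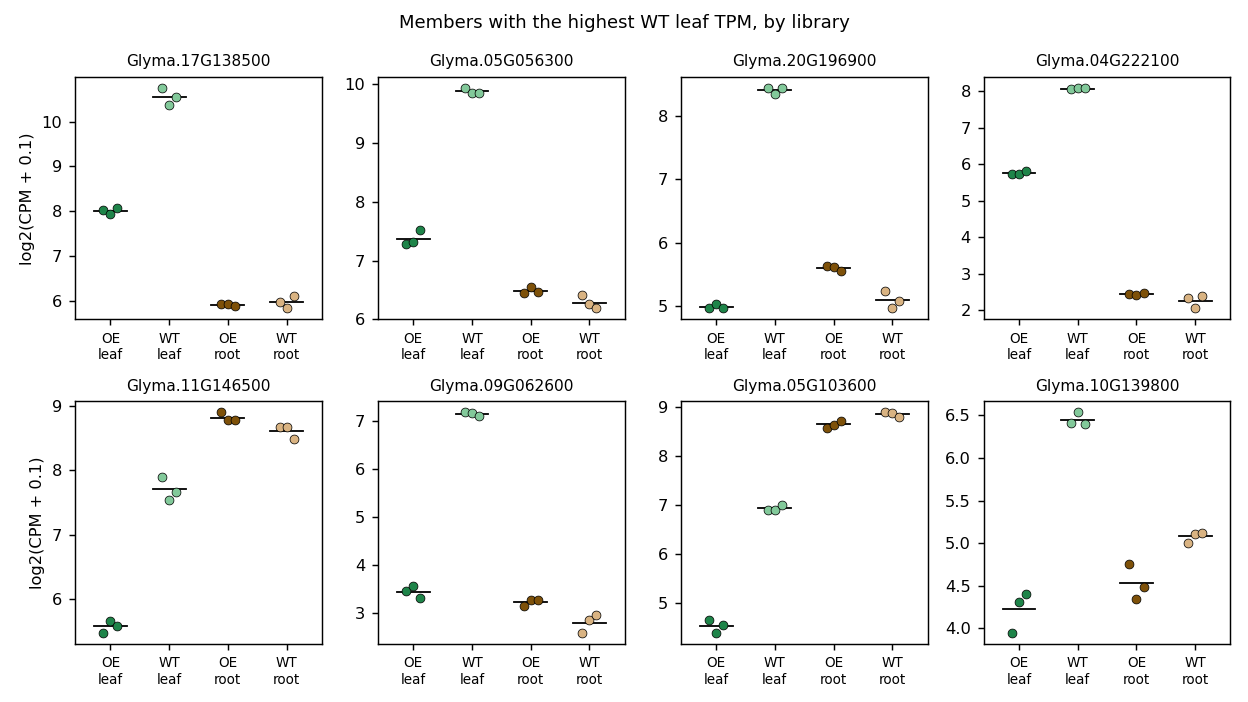
TMM-scaled CPM per library on the log2(CPM + 0.1) scale for the 8 genes with the highest WT leaf TPM, with 1 point per library and a bar at the group mean. The OE leaf points lie below the WT leaf points in each panel, and the root points lie above the leaf points of both genotypes in Glyma.11G146500 and Glyma.05G103600.

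The root level was held in a band by the rule and not at a fixed value. The root ratio of the 69 had a median of 0.858 and ran from 0.670 to 1.44. It was under 1 in 48 genes and over 1 in 21. It was under 0.8 in 29 and over the inverse of 0.8 in 4, and lay between these in 36. The OE root libraries were all below the WT root libraries in 34 genes, against 24.7% of all genes tested, and all above in 9, against 19.5%, and the groups overlapped in 26. In a fit over all genes (edgeR, Benjamini-Hochberg adjusted p under 0.05), OE root differed from WT root in 33 of the 69, against 30.1% of the 35968 genes tested. These were 47.8% of the 69, against 36.4% of the genes at both floors and 27.1% of those also in the root band. OE root was lower in 30, against 18.1% of all genes tested, and higher in 3, against 12%. The 3 were Glyma.09G062600, Glyma.20G196900 and Glyma.11G077400, and there were 5 without WT leaf replicate 1, WT leaf replicate 2 or WT root replicate 1. Root ratios of the 30 ran from 0.670 to 0.881. So the words root unchanged hold for the band of the rule and not for each gene, and nothing more is read from these counts since the rule used this contrast.

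WT root replicate 3 was the lowest WT root library in several of these genes and the highest in others. It was the highest in Glyma.11G213500, at 16.4, 20.9 and 23.7 in WT root, in TMM-scaled CPM. The same held in Glyma.07G007000, at 3134, 3159.5 and 3430.1. The genes that follow are cases where it was the lowest. Glyma.11G077400 had 47.6, 39.2 and 45.8 in OE root against 41.8, 32.5 and 20.9 in WT root, and Glyma.04G180800 5.34, 7.38 and 7.01 in OE root against 11.8, 10.9 and 4.25 in WT root, in TMM-scaled CPM. In both, the first 2 WT root libraries lay well above the third.

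The rule set a floor on both control levels but not their order, so the control organs were compared next: WT leaf over WT root asks in which organ these genes are normally the more abundant. The 69 were split. By edgeR, 27 were higher in WT leaf, against 35.9% of all genes tested, and 32 were lower in WT leaf, against 41.8%. Together 59 of the 69 were called, against 77.7%, and 10 were not. In percent, 39.1% of the 69 were higher and 46.4% lower, while among all 17852 genes at both floors 48.2% were higher and 30.4% lower. Among the 189 genes low in both tissues the shares were 59.3% and 30.2%, and 7 of the 7 genes low in leaf and high in root were higher in WT leaf. The median log2 fold change of WT leaf over WT root was -0.15 in the 69, 0.22 in the genes at the floors and -0.13 in all genes tested. No test of these shares against each other was made.

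The split depends on whether leaf and root libraries are scaled beyond their totals. With DESeq2 size factors, another such scaling, it stayed at 27 higher and 32 lower in WT leaf. TMM factors ran from 0.665 to 0.676 for WT leaf and from 1.249 to 1.276 for WT root. On total counts without them, 19 of the 69 were higher in WT leaf, against 21.7% of all genes tested, and 45 lower, against 66.4%, as the median of all genes moved by -0.907 on the log2 scale. Glyma.03G139900, Glyma.12G173800 and others took or lost a call in this way. Glyma.07G011700, Glyma.09G208300 and Glyma.10G113700 turned from higher in WT leaf to lower, and 50 of the 69 kept 1 call in all 18 settings tried.

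**Figure D4:**
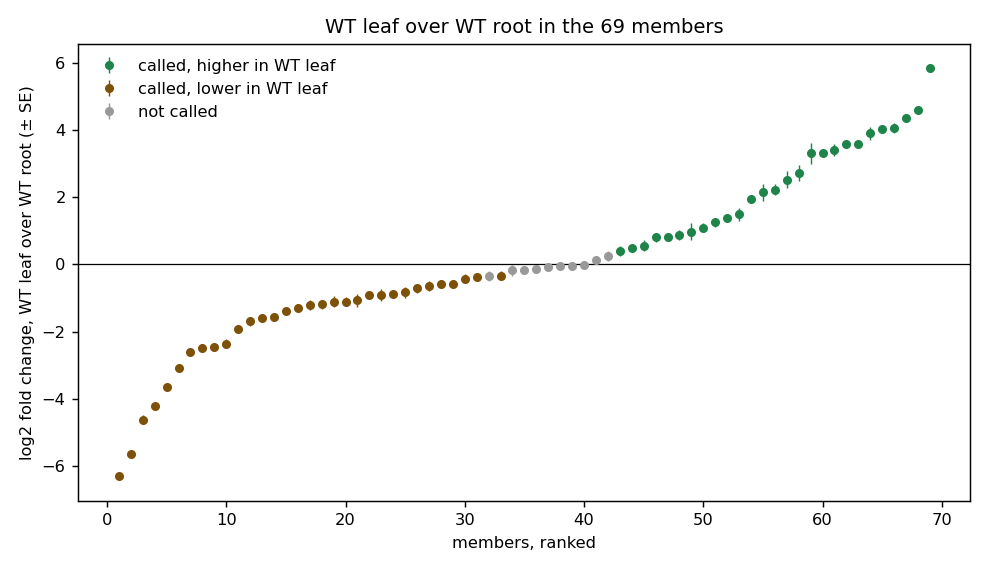
Log2 fold change of WT leaf over WT root with its SE for the 69 genes, ranked, from the edgeR fit with TMM. In green are the 27 higher in WT leaf, in brown the 32 lower and in grey the 10 not called. The values run from -6.30 to 5.84.

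The genes with the strongest lean to the root differed widely in their WT leaf level. Glyma.13G270400 (chromosome 13, 37245728 to 37252308, plus strand) had 7.42, 10.3 and 8.403 in WT leaf against 700.1, 659.6 and 696 in WT root, in TMM-scaled CPM, 78.7-fold lower in leaf (log2 fold change -6.30, SE 0.110, edgeR adjusted p = 1.92e-31; n = 3 each). Its OE libraries had 0.662, 0.853 and 0.666 in leaf and 733, 759 and 709 in root, so the small leaf level dropped to a leaf ratio of 0.0987 while the root ratio was 1.09. Glyma.09G040600 had 8.25, 6.97 and 7.99 in WT leaf against 394, 389.9 and 375 in WT root, in TMM-scaled CPM, 49.9-fold lower in leaf (log2 fold change -5.64, SE 0.114, edgeR adjusted p = 8.64e-30). It ranked 50 of all genes in WT root by TPM and 12574 in WT leaf.

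Glyma.01G127200 (chromosome 1, 43807034 to 43808134, plus strand, a single exon) had 17.2, 13.5 and 18.5 in WT leaf against 451, 435 and 317 in WT root, in TMM-scaled CPM (log2 fold change -4.61, SE 0.128, edgeR adjusted p = 1.77e-23). Replicate 3 was again the lowest in WT root, and the call held without it. Glyma.07G007000 (chromosome 7, 509819 to 514700, plus strand) was the most abundant of the 69 in WT root, at 2236 TPM and rank 14 of all genes. It had 176, 182 and 169 in WT leaf against 3134, 3159.5 and 3430.1 in WT root, in TMM-scaled CPM (log2 fold change -4.21, SE 0.0903, edgeR adjusted p = 4.77e-29). Its OE leaf libraries had 28.7, 31.6 and 32.9 and its OE root libraries 2251, 2138 and 2180.3, a leaf ratio of 0.184 and a root ratio of 0.686 close to the lower limit.

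Glyma.17G163200 (chromosome 17, 14529301 to 14533247, minus strand) and Glyma.10G004800 (chromosome 10, 457173 to 468529, minus strand) complete the root end. Glyma.17G163200 had 14.8, 14.5 and 16.97 in WT leaf against 199.6, 177 and 199 in WT root, in TMM-scaled CPM (log2 fold change -3.64, SE 0.0954, edgeR adjusted p = 1.33e-26). Glyma.10G004800 had 21.5, 16.1 and 25.6 in WT leaf against 171, 174 and 188 in WT root, in TMM-scaled CPM (log2 fold change -3.07, SE 0.109, edgeR adjusted p = 6.73e-23). The WT leaf and WT root libraries were far apart in both.

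At the leaf end stood Glyma.04G222100, described above, which was 57.1-fold higher in WT leaf than in WT root (log2 fold change 5.84, SE 0.103, edgeR adjusted p = 2.49e-31; n = 3 each). Glyma.17G138500 was 24.2-fold higher (log2 fold change 4.60, SE 0.103, edgeR adjusted p = 1.66e-28) and Glyma.09G062600 was 20.6-fold higher (log2 fold change 4.36, SE 0.106, edgeR adjusted p = 1.64e-27). Glyma.18G103000 (chromosome 18, 11005402 to 11011477, plus strand) had 49.99, 48.2 and 48.9 in WT leaf against 2.87, 2.54 and 3.35 in WT root, in TMM-scaled CPM (log2 fold change 4.06, SE 0.143, edgeR adjusted p = 5.37e-23). Its OE leaf libraries, at 11.4, 10.8 and 8.79, were still above its OE root libraries, at 2.09, 1.75 and 2.35.

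Glyma.02G292900 (chromosome 2, 47176429 to 47178910, plus strand) had 102, 105 and 114 in WT leaf against 6.06, 7.16 and 6.56 in WT root, in TMM-scaled CPM (log2 fold change 4.02, SE 0.112, edgeR adjusted p = 7.03e-26), with 17.99, 17.8 and 17.3 in OE leaf. Glyma.08G293200 (chromosome 8, 40820089 to 40822303, plus strand, a single exon) had 34.1, 30.4 and 30.7 in WT leaf against 3.01, 2.12 and 1.27 in WT root, in TMM-scaled CPM (log2 fold change 3.90, SE 0.190, edgeR adjusted p = 5.68e-19), with 7.04, 8.35 and 7.196 in OE leaf. Both kept more transcript in leaf than in root in OE too.

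The genes called higher in WT leaf had a median level of 26.8 TPM there and 12.5 TPM in WT root. Those called lower had a median of 10.1 TPM in WT leaf, against 65.7 TPM in WT root, and those not called 23.6 TPM in WT leaf, against 42.6 TPM in WT root. TPM carries no TMM factor, so these medians do not give the leaf over root difference behind the calls. With TMM, the median log2 fold change of WT leaf over WT root in those not called was -0.063. At the edge of the calls, Glyma.19G142700 was lower in WT leaf (log2 fold change -0.33, SE 0.122, edgeR adjusted p = 0.0157). That call was lost without WT leaf replicate 1 (edgeR adjusted p = 0.166), without WT root replicate 2 (edgeR adjusted p = 0.0538) and in the fit of the 6 WT libraries alone (edgeR adjusted p = 0.0613). Glyma.03G139900 was not called (log2 fold change 0.25, SE 0.139, edgeR adjusted p = 0.0953) and was called higher without WT leaf replicate 1 (edgeR adjusted p = 0.0145). Glyma.12G173800 was not called (log2 fold change -0.17, SE 0.160, edgeR adjusted p = 0.330) and was called lower without WT root replicate 3 (edgeR adjusted p = 8.46e-04).

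With the leaf falls the order of the organs differed between the genotypes. The leaf mean was above the root mean in 11 of the 69 genes in OE and in 29 in WT, on TMM-scaled CPM. All 11 were above in both genotypes, and 18 were below in OE and above in WT. Of the 27 called higher in WT leaf, 11 kept leaf above root in OE and 16 did not. The OE leaf libraries were all below the OE root libraries in 54 genes, against 42% of all genes tested, all above in 11, against 38.9%, and overlapped them in 4. WT leaf was all below WT root in 31, against 41.7%, all above in 27, against 35.8%, and overlapped in 11. This follows from the choice of genes by a leaf fall with the root in a band, and it was not tested.

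**Figure D5:**
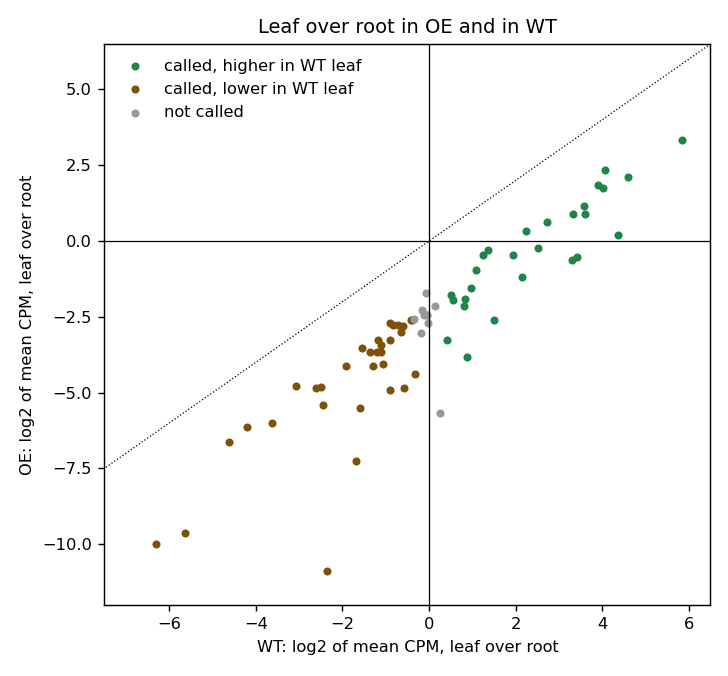
Log2 of mean leaf over mean root TMM-scaled CPM for each of the 69 genes, in OE on the vertical axis and in WT on the horizontal axis, with the dotted line marking equal values. All points lie below that line, as the rule requires a leaf fall, and 18 points lie right of 0 in WT and below 0 in OE.

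The 69 genes were spread over 19 of the 20 chromosomes, with at most 6 on one, 33 on the plus strand and 36 on the minus strand (annotation Wm82.a2.v1). Their exons summed to a median of 1582 bp, against 2030 bp in the genes at both floors. A single exon block made up 16 of the 69, or 23.2%, against 6.88% of the genes at the floors and 13.8% of the genes low in both tissues. Among the 8 genes with the lowest leaf ratio 4 had a single exon. These structures played no part in the rule and are given with no test.

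In 3 places genes of the set lay near each other. Glyma.03G179900 (chromosome 3, 39210354 to 39211473, minus strand) and Glyma.03G180000 (chromosome 3, 39215124 to 39216090, minus strand) are neighbours with 3650 bases between them, on the same strand and each with a single exon. Glyma.03G179900 had 11.9, 12.6 and 9.93 in OE leaf against 66.2, 82.1 and 72.7 in WT leaf, and Glyma.03G180000 had 3.61, 3.53 and 3.06 in OE leaf against 19.7, 25.03 and 23.1 in WT leaf, in TMM-scaled CPM. Their leaf ratios were close, at 0.163 and 0.1603. The models on either side, Glyma.03G179800 and Glyma.03G180100, had leaf ratios of 1.27 and 1.02.

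Glyma.09G040500 (chromosome 9, 3370431 to 3371819, plus strand) and Glyma.09G040600 (chromosome 9, 3385940 to 3388420, plus strand) are neighbours with 14120 bases between them. Both were lower in OE leaf, with 2.59, 1.95 and 1.999 in OE leaf against 9.32, 11.4 and 8.24 in WT leaf in the first and 0.301, 0.6702 and 0.1999 in OE leaf against 8.25, 6.97 and 7.99 in WT leaf in the second, in TMM-scaled CPM. In root they were far apart, at 2.99 TPM in OE and 2.32 TPM in WT for the first, and 812 TPM in OE and 946 TPM in WT for the second. The first was higher in WT leaf than in WT root (log2 fold change 3.30, SE 0.303, edgeR adjusted p = 1.11e-11) and the second lower, as above. The next model after them, Glyma.09G040700, had a leaf ratio of 1.11.

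Glyma.12G173800 (chromosome 12, 33069515 to 33070786, plus strand) and Glyma.12G174700 (chromosome 12, 33208390 to 33213160, minus strand) had 5 gene models and 137603 bases between them. Their leaf ratios were 0.132 and 0.229, and those of the 5 models between ran from 0.709 to 1.39. In WT root Glyma.12G173800 had 61.02, 54.1 and 33.4 TMM-scaled CPM, with replicate 3 the lowest. Taking the next gene at both floors on each side of the 69, with models under a floor skipped, gave 138 flanking positions. The leaf ratio was at most 0.5 in 16 of these, or 11.6%, the neighbouring pairs above included. The share was 5.73% for all genes at the floors.

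Where models on opposite strands share exon bases, reads without strand cannot be told apart and may be miscounted or left out. This touches 2 of the 69. Glyma.18G272100 shares 1576 exon bases with Glyma.18G272000, which had 3195 counts in OE leaf and 2160 in WT leaf, against 101 in OE leaf and 430 in WT leaf for Glyma.18G272100, so its value is uncertain. Glyma.05G056300 shares 9 exon bases with a model of 93 to 120 counts in each group, against 5032 to 34338 of its own.

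The limits of the rule cut through a continuous range of values. Glyma.07G078800 was just inside the leaf limit, at a leaf ratio of 0.2487, and Glyma.09G276600 just outside, at 0.2501. In root Glyma.20G196900 was just inside the upper limit, at 1.441, and Glyma.13G043500 outside, at 1.52. At the lower limit Glyma.11G213500 was inside, at 0.6698, and Glyma.20G124200 outside, at 0.6635. For the WT leaf floor these were Glyma.09G040600, at 5.2 CPM on total counts, and Glyma.07G152000, at 4.99. For the WT root floor they were Glyma.09G040500, at 1.22 CPM on total counts, and Glyma.18G130100, at 0.801.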

How the data were processed

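The authors counted read pairs over the exons of each gene model with featureCounts (v2.0.1) on annotation Wm82.a2.v1, per the file headers. The values used are these deposited raw counts. No source used here names the aligner. Per the file headers no option was set for strand, for reads mapping to several places or for reads over several genes, so antisense partners and near-identical copies are uncertain. Library totals were 16885874 to 19041634 counts. No library was left out, and replicates differed by more than sampling noise.

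The 69 genes and the lists were chosen with earlier results of these data known. Counts were fitted with edgeR 4.0.16 in R 4.3.3 (TMM, filterByExpr, quasi-likelihood test, 4 groups, 12 libraries, 8 residual degrees of freedom, no block), which kept 35968 genes with 99.94% of counts, at a common biological coefficient of variation of 0.0938. Adjusted p-values are Benjamini-Hochberg over all genes tested, with calls under 0.05. The fit was also run on simulated data, with no outcome given here, so that run lends no weight to a call. Levels compared between libraries are TMM-scaled CPM, and between genes TPM from counts and exon length. Intervals are exact at 95%, on counts scaled by TMM library sizes, and cover counting error only. Alternatives were DESeq2 1.42.0, other scalings, pseudocounts and limits, no low count filter, a replicate block and leaving out each library.

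Named genes are the 8 with the lowest leaf ratio, the 8 with the highest WT leaf TPM, the 6 highest and 6 lowest called log2 fold changes of WT leaf over WT root, those at each limit of the rule and those with at most 5 gene models between them. Glyma.07G011700, Glyma.08G103400, Glyma.17G227900, Glyma.09G208300, Glyma.10G113700, Glyma.11G077400, Glyma.04G180800 and Glyma.18G272100 were added after their values were seen. Gene lists planned from product descriptions were not applied, since the reference table (Glycine_max_v4.0) matched 0 of 43517 identifiers.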

Additional observations from a re-analysis of the deposited data

Results flagged for a closer look

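In 9 of the 69 genes every OE leaf library was below every WT leaf library and every OE root library was above every WT root library. Of all genes tested, 19.5% showed the root pattern and 24.9% the leaf pattern, and nothing is read from the count of 9. The leaf direction was set by the choice of genes, and the difference between the organs was not tested. The values below are the log2 ratio of OE over WT in root minus that in leaf. Glyma.09G062600 had 4.10, the largest of the 9. Glyma.20G196900 had 3.88, and it also had the highest root ratio of the 69. Glyma.13G270400, the gene with the strongest lean to the root in WT, had 3.46. Glyma.07G011700 had 3.54. Glyma.05G056300 had 2.68. Glyma.04G222100, the gene with the strongest lean to the leaf in WT, had 2.46. Glyma.08G103400 had 2.38. Glyma.11G146500 had 2.32. Glyma.17G227900 had 2.23. Of these 9, Glyma.09G062600 and Glyma.20G196900 were among the genes edgeR called higher in OE root.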

How the results depend on the processing

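The count of genes under the rule was 36 with a root ratio between 0.8 and its inverse, in place of 69. It was 96 on TMM-scaled library sizes (67 shared with the 69), 57 without division by the median (49 shared), 68 with a pseudocount of 0.5 (62 shared), 74 with 0.01 (69 shared) and 50 with a leaf ratio of at most 0.2 (50 shared). Leaving out 1 library gave 65 to 78. For WT leaf over WT root, leaving out 1 library gave 27234 to 28149 genes called and 57 to 62 of the 69, 26 to 28 higher and 31 to 35 lower. For OE over WT root it gave 23 to 35 called, 2 to 5 higher and 20 to 31 lower. The count higher in OE root was 6 in the fit of the 6 root libraries, 5 with a replicate block and 8 on total counts, in place of 3. Same-numbered replicates of WT leaf and WT root, and of OE root and WT root, did not deviate together (correlations within ±0.017). Pairings with OE leaf were not checked. The replicate block gave 59 of the 69 called for WT leaf over WT root, 27 higher and 32 lower, as without it.

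The sign of WT leaf over WT root turned for 8 of the named genes. On total counts the log2 fold change was -0.655 for Glyma.03G139900, -0.029 for Glyma.03G100500, -0.768 for Glyma.03G180000, -0.503 for Glyma.07G011700, -0.403 for Glyma.09G208300 and -0.357 for Glyma.10G113700. With TMM the values were 0.254, 0.879, 0.139, 0.405, 0.504 and 0.55, in the same order. From TMM to total counts the median of all genes tested moved by -0.907. Glyma.12G173800 had 0.004 without WT root replicate 1 and -0.393 without WT root replicate 3. Glyma.03G179900 had 0.048 in the fit of the 6 WT libraries, 0.020 with DESeq2, 0.022 with DESeq2 size factors, 0.058 with the replicate block, 0.053 without WT leaf replicate 1, 0.096 without WT root replicate 1 and 0.010 without WT root replicate 2, and -0.155 without WT root replicate 3. The cause was not tested.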
